A study of Mus musculus with 4 samples.

Results

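The genes described here encode the nuclear subunits of mitochondrial oxidative phosphorylation. They were chosen by gene symbol, with earlier results of these data known but no measured value in the rule, as the *Nduf*, *Sdh*, *Uqcr*, *Cyc1*, *Cox* and *Atp5* subunit names, and 83 of the 23420 symbols in the count files fitted. By name, 37 belong to complex I, 4 to complex II, 9 to complex III, 16 to complex IV and 17 to complex V. *Ndufa4* counts here as complex I by its name, although its protein is now placed in complex IV. *Atp5s* and *Atp5sl* fit the name pattern but are not subunits, and the counts of genes called were the same without them. *Cox4i1*, *Cox4i2* and *Ndufab1* are subunit genes whose names lie outside the pattern, and they are described separately.

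RNA-seq was performed on prefrontal cortex (PFC) of C57BL6/J mice, with 2 samples from mice injected with *Ash1L* shRNA AAV and 2 from mice injected with the control virus. *Ash1L* encodes a histone methyltransferase, and the shRNA was expressed from a U6 promoter in a GFP-tagged AAV, which is not restricted to a cell type. The labels call the control virus GFP AAV9, the paper's methods call it scrambled shRNA, and no further allele or agent is named for either group. The series description gives an age of 6 to 8 weeks and names 3 *Ash1L* shRNA mice and 2 control mice, whereas the methods give 5 weeks at injection and a pool of 3 mice per sample. RNA came from GFP-fluorescent tissue punches and therefore from every cell type in them. In such bulk tissue, fewer cells of a type and less RNA per cell cannot be told apart. Total counts were 14251190 and 35764874 in control samples 1 and 2 and 27479339 and 20106708 in *Ash1L* shRNA samples 1 and 2. The targeted gene, *Ash1l*, had 245.0 and 290.1 normalized CPM (a count scaled to library size and TMM factor) in the controls. It had 215.6 and 137.5 in *Ash1L* shRNA samples 1 and 2 (log2 fold change -0.60 ± 0.22 SE, edgeR adjusted p = 0.275). Without each sample in turn, its log2 fold change ran from -0.97 to -0.31.

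Oxidative phosphorylation makes most of the ATP of neurons. Complex I (NADH dehydrogenase) and complex II (succinate dehydrogenase) pass electrons to ubiquinone, complex III passes them on to cytochrome c, and complex IV (cytochrome c oxidase) passes them to oxygen. Complexes I, III and IV pump protons across the inner membrane, and complex V (ATP synthase) uses their return to make ATP. Most subunits are encoded in the nucleus and a few core ones in mitochondrial DNA, whose transcripts were not analysed here.

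Among the 80 subunit genes that passed the filter on low counts, 15 (18.8%) were called UP in the *Ash1L* shRNA samples and 2 (2.5%) were called DOWN. A call here means an unadjusted edgeR p under 0.05 and at least a 1.2-fold change. The study set the same limits on results of DESeq2, another test, without saying whether its P was adjusted. With DESeq2, the counts of subunit genes called differed and are given below. Of all 16232 genes tested, 8.61% were called UP and 8.28% were called DOWN. The UP genes were 5 of complex I, 2 of complex III, 5 of complex IV and 3 of complex V, and none of complex II. Apart from *Cox7a1*, their log2 fold changes lay between 0.28 and 0.43. By edgeR's quasi-likelihood test, 0 subunit genes passed an adjusted p of 0.05 (lowest 0.253), against 17 with an unadjusted p under 0.05. DESeq2 also gave 0 by adjusted p, and 12 by unadjusted p. The adjusted p of the 17 called genes ran from 0.253 to 0.294 (edgeR, Benjamini-Hochberg).

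Most differences of the subunit genes were small and positive. The log2 fold change was above 0 for 55 of the 80 and below 0 for 25, with a median of 0.12, and the median over all tested genes was -0.00. Both *Ash1L* shRNA samples lay above both controls for 41 of the 80 (51.2%), against 26.5% of all tested genes. Both lay below both controls for 9 (11.2%), against 26.8%. The absolute log2 fold change had a median of 0.18 over the subunit genes and 0.23 over all tested genes. In the sum over all subunit genes, the controls had 10150.2 and 9636.3 normalized CPM and the *Ash1L* shRNA samples 10899.8 and 11040.6, so the groups did not overlap.

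**Figure D1:**
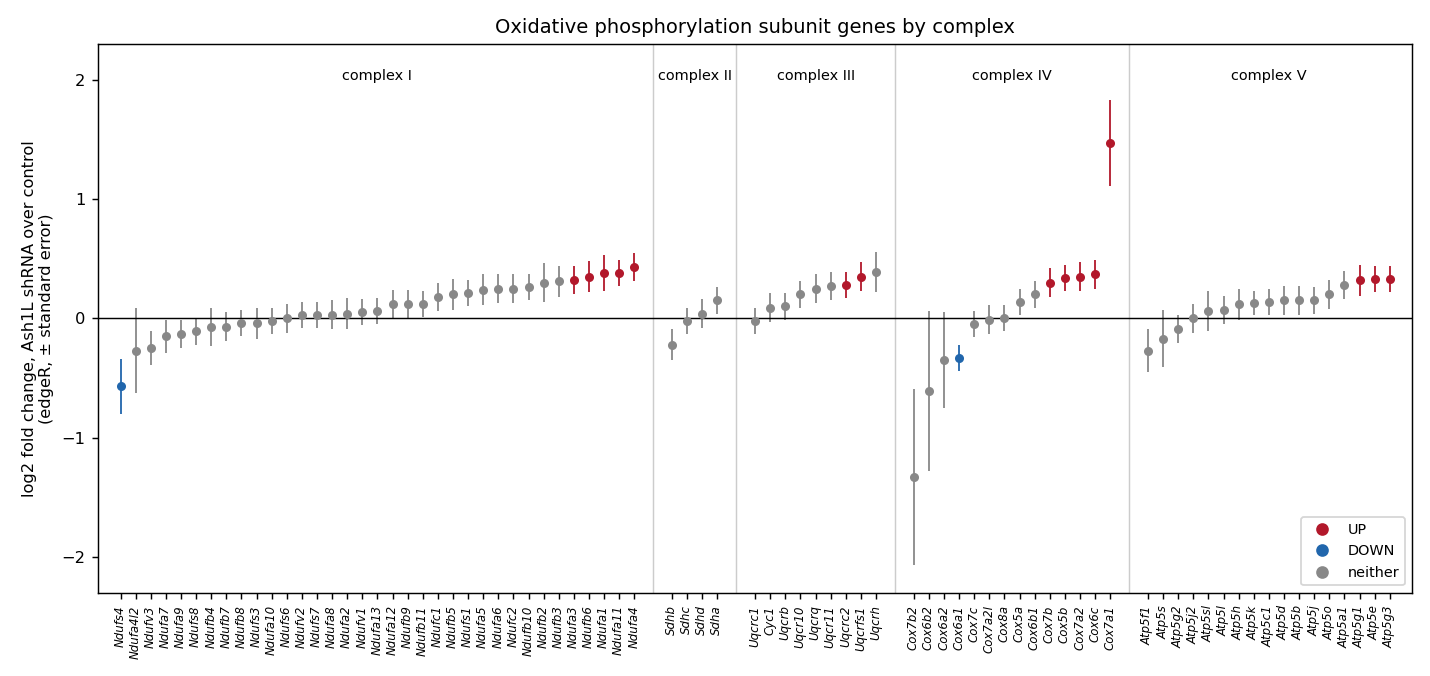
Log2 fold change of the tested subunit genes but 1 (*Ash1L* shRNA over control, edgeR) with its standard error, grouped by complex and ordered within it. Red points are the 15 genes called UP and blue points the 2 called DOWN; most points lie within 0.5 of 0, and *Cox7a1* and *Cox7b2* lie farthest from it at 1.47 and -1.33.

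The control samples also differed from each other in these genes. Control sample 1 was above control sample 2 for 55 of the 80 subunit genes, against 49.7% of all tested genes, and for 13 of the 15 UP genes. *Ash1L* shRNA sample 2 was above sample 1 for 14 of the 15. The UP count fell to 0 without control sample 2 (2.57% of all genes then UP), to 6 without control sample 1 (5.07%) and to 6 without *Ash1L* shRNA sample 2 (6.25%), and was 20 without *Ash1L* shRNA sample 1 (14.4%). The corresponding DOWN counts were 0 (1.86% of all genes), 0 (4.14%), 0 (5.05%) and 5 (16.5%). A fit with a replicate block gave 3 UP (6.48% of all genes), which were *Ndufa4*, *Ndufa11* and *Cox7a1*, and 0 DOWN (6.28%). In DESeq2, 10 subunit genes were UP (6.16%) and 2 DOWN (6.35%), and 9 of the 15 UP genes were among them.

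Complex I is the entry point for electrons from NADH and the largest of the complexes. Of its 36 tested genes, 5 (13.9%) were called UP, against 8.61% of all tested genes. The 5 include *Ndufa4*, counted here by name only. In the other direction, 1 (2.78%) was called DOWN, against 8.28%, and the median log2 fold change was 0.09. *Ndufa4* (chromosome 6, 11900292 to 11907497, minus strand of mm10) had 201.0 and 178.7 normalized CPM in the controls and 258.0 and 254.7 in the *Ash1L* shRNA samples. Its log2 fold change was 0.43 ± 0.12 SE (edgeR adjusted p = 0.255), and it remained UP with the replicate block. *Ndufa11*, an accessory subunit of the membrane arm, had 48.2 and 52.2 in the controls and 64.9 and 66 in the *Ash1L* shRNA samples, and its log2 fold change was 0.38 ± 0.11 SE (edgeR adjusted p = 0.260). In both genes the gap between the groups was larger than the gap within either.

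The other UP genes of complex I also encode accessory subunits. *Ndufa1* had 45.4 and 35.8 normalized CPM in the controls and 50.7 and 54.5 in the *Ash1L* shRNA samples (log2 fold change 0.38 ± 0.15 SE). *Ndufb6* had 51.2 and 44.8 against 57.2 and 64.8 (0.35 ± 0.13 SE). *Ndufa3* had 65.2 and 63.3 against 74.8 and 85.2 (0.32 ± 0.12 SE). These genes did not overlap between groups either, but in *Ndufa1* and *Ndufb6* the gap between the control samples was larger than the gap between control sample 1 and *Ash1L* shRNA sample 1.

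*Ndufs4*, which encodes an accessory subunit of the NADH-oxidizing module whose loss causes the mouse model of Leigh syndrome, was the DOWN gene of complex I. It had 43.5 and 55.8 normalized CPM in the controls and 40.5 and 26.3 in the *Ash1L* shRNA samples, and its log2 fold change was -0.57 ± 0.23 SE (edgeR adjusted p = 0.294). *Ash1L* shRNA sample 2 was far below the others. The call was lost without it (log2 fold change -0.30), without control sample 1 (-0.73) and without control sample 2 (-0.38).

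*Ndufs1* and *Ndufv1*, core subunits of electron transfer, were not called. *Ndufs1*, an iron-sulfur subunit, had 165.1 and 157.4 normalized CPM in the controls and 180.8 and 193.0 in the *Ash1L* shRNA samples (log2 fold change 0.21 ± 0.11 SE). *Ndufv1*, the flavin-binding subunit, had 169.8 and 174.5 against 181.8 and 173.8 (0.05 ± 0.11 SE), and its groups overlapped.

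The subunits of complex I sit in an NADH-oxidizing module (N), a ubiquinone-binding module (Q) and a membrane arm. This grouping was made after the values were seen and is given as a description. Of 18 tested membrane-arm genes, 4 were UP, 0 were DOWN, and 11 had both *Ash1L* shRNA samples above both controls, with a median log2 fold change of 0.19. The N module had 0 UP and 1 DOWN of 10 genes with a median of 0.03, and the Q module had 0 UP and 0 DOWN of 6 with a median of -0.01. In each of these 2 modules, 2 genes had both *Ash1L* shRNA samples above both controls. The shares over all tested genes were 8.61% for UP, 8.28% for DOWN and 26.5% for both above. Whether the modules differ was not tested. *Ndufs5* had 0 counts in every sample, which allows up to 3 counts per sample only if its reads can be counted. The annotation lists 1 near-identical pseudogene of *Ndufs5*, and whether its transcript was absent was not tested.

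Complex II, which also serves the citric acid cycle, had no called gene. *Sdha*, the flavoprotein, had 452.3 and 424.1 normalized CPM in the controls and 501.5 and 472.1 in the *Ash1L* shRNA samples (log2 fold change 0.15 ± 0.11 SE). *Sdhb*, the iron-sulfur subunit, lay the other way with 97.3 and 118.8 against 92 and 94.3 (-0.22 ± 0.13 SE). The membrane anchors *Sdhc* (-0.02 ± 0.11 SE) and *Sdhd* (0.04 ± 0.12 SE) overlapped between groups. The median over the 4 genes was 0.01.

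Complex III had a median log2 fold change of 0.25, the highest of the complexes with all samples in the fit. Without control sample 1 it was 0.20, against 0.21 for complex IV and 0.22 for complex V. The log2 fold change was above 0 for 8 of the 9 genes of complex III. Both *Ash1L* shRNA samples lay above both controls for 7 of the 9, against 26.5% of all tested genes. *Uqcrfs1*, the Rieske iron-sulfur protein, had 93 and 85.9 normalized CPM in the controls and 106.6 and 120.8 in the *Ash1L* shRNA samples (log2 fold change 0.35 ± 0.12 SE, edgeR adjusted p = 0.262). *Uqcrc2*, a core structural subunit, had 230.0 and 218.1 against 265.0 and 279.8 (0.28 ± 0.11 SE, edgeR adjusted p = 0.281). Both were above the controls in both *Ash1L* shRNA samples, and neither was called with the replicate block.

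The other genes of complex III were not called. *Uqcrh*, the hinge protein, had the highest log2 fold change of the complex (0.39 ± 0.17 SE), with 174.3 and 125.1 normalized CPM in the controls and 186.8 and 204.4 in the *Ash1L* shRNA samples. Its control samples differed more from each other than control sample 1 differed from either *Ash1L* shRNA sample. The core partner of *Uqcrc2*, *Uqcrc1*, had 215.1 and 224.1 against 221.4 and 211.7 (-0.02 ± 0.11 SE). *Cyc1*, the cytochrome c1 haem protein, had 112.6 and 99.2 against 115.4 and 110.1 (0.09 ± 0.12 SE), and both of these genes overlapped between groups.

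Complex IV spanned the widest range of the complexes and held both an isoform called UP and one called DOWN. Of its 14 tested genes, 5 (35.7%) were UP and 1 (7.14%) was DOWN, against 8.61% and 8.28% of all tested genes. The median was 0.07. *Cox7a1* (chromosome 7, 30184144 to 30186078, plus strand), the heart and skeletal muscle isoform of subunit VIIa, had counts of only 28 and 45 in the controls and 107 and 102 in the *Ash1L* shRNA samples. These were 1.98 and 1.28 normalized CPM against 3.91 and 4.92, a log2 fold change of 1.47 ± 0.36 SE (edgeR adjusted p = 0.253, the lowest among the subunit genes). It was also called with the replicate block. Its log2 fold change without each sample in turn ran from 1.14 to 1.79, and the call was lost without control sample 2 (1.14).

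The widely expressed isoform *Cox7a2* had 129.2 and 121.3 normalized CPM in the controls and 148.1 and 171.1 in the *Ash1L* shRNA samples (log2 fold change 0.35 ± 0.12 SE, edgeR adjusted p = 0.262). *Cox7a1* therefore stayed a small share of the counts of the pair, with 1.51% (Wilson 95% interval 1.05 to 2.18) and 1.05% (0.783 to 1.4) in the controls. The share was 2.57% (2.13 to 3.1) and 2.8% (2.31 to 3.38) in the *Ash1L* shRNA samples. These intervals cover counting error only. The interval of control sample 1 just overlapped that of *Ash1L* shRNA sample 1, and that of control sample 2 overlapped neither *Ash1L* shRNA sample.

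*Cox6a1* (chromosome 5, 115345642 to 115348981, minus strand), the widely expressed isoform of subunit VIa, was the DOWN gene. It had 175.6 and 187.1 normalized CPM in the controls and 149.0 and 140.0 in the *Ash1L* shRNA samples, and its log2 fold change was -0.33 ± 0.11 SE (edgeR adjusted p = 0.261). Both *Ash1L* shRNA samples were below both controls. The muscle isoform *Cox6a2* had 2.76 and 2.68 against 2.74 and 1.5 and was not called. *Cox6a1* lost its call with the replicate block, with an offset for GC content (log2 fold change -0.23), and when control sample 1 (-0.36), control sample 2 (-0.29) or *Ash1L* shRNA sample 2 (-0.28) was left out.

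The remaining UP genes of complex IV encode small subunits around the catalytic core. *Cox6c* had 167.7 and 146.2 normalized CPM in the controls and 193.8 and 212.3 in the *Ash1L* shRNA samples (log2 fold change 0.37 ± 0.12 SE). *Cox5b*, the zinc-binding subunit, had 159.7 and 148.5 against 188.5 and 202.6 (0.34 ± 0.11 SE). *Cox7b* had 145.1 and 133.4 against 163.7 and 178.2 (0.30 ± 0.12 SE). In each, both *Ash1L* shRNA samples were above both controls.

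Other subunits of complex IV were close to the controls. *Cox8a* had 301.7 and 293.7 normalized CPM in the controls and 287.8 and 308.9 in the *Ash1L* shRNA samples (log2 fold change 0.00 ± 0.11 SE). *Cox7c* (-0.05 ± 0.11 SE) and *Cox7a2l*, a factor in supercomplex assembly (-0.01 ± 0.12 SE), also overlapped between groups. *Cox5a* (0.14 ± 0.11 SE) and *Cox6b1* (0.20 ± 0.11 SE) were above the controls in both *Ash1L* shRNA samples without being called.

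The testis-enriched isoforms *Cox7b2* and *Cox6b2* were rare. *Cox7b2* had counts of 13 and 20 in the controls and 12 and 2 in the *Ash1L* shRNA samples (log2 fold change -1.33 ± 0.74 SE), and *Cox6b2* had 56 and 50 against 26 and 52 (-0.61 ± 0.67 SE). *Ndufa4l2*, the hypoxia-inducible relative of *Ndufa4*, had counts of 32 and 74 against 56 and 32 (-0.27 ± 0.36 SE). None of the 3 was called. *Cox8b* had counts of 6 and 6 against 9 and 2 and did not pass the filter, and *Cox8c* had 0 counts in every sample, which allows up to 3 counts per sample.

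Complex V had 3 UP genes (17.6%), 0 DOWN and a median of 0.14 over 17 genes. Of all tested genes, 8.61% were UP and 8.28% were DOWN. Both *Ash1L* shRNA samples lay above both controls for 10 of the 17, against 26.5% of all tested genes. The UP genes were *Atp5e*, the epsilon subunit of the central stalk, and 2 of the 3 genes for the c subunit of the membrane rotor. *Atp5e* had 53.9 and 60 normalized CPM in the controls and 71.3 and 72.4 in the *Ash1L* shRNA samples (log2 fold change 0.33 ± 0.11 SE, edgeR adjusted p = 0.262). The gap between its groups was larger than the gap within either.

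*Atp5g1*, *Atp5g2* and *Atp5g3* encode the same mature c subunit with different import sequences. *Atp5g3* had 129.9 and 129.6 normalized CPM in the controls and 158.0 and 168.1 in the *Ash1L* shRNA samples (log2 fold change 0.33 ± 0.11 SE). *Atp5g1* had 158.6 and 133.8 against 174.9 and 189.2 (0.32 ± 0.13 SE), and *Atp5g2* had 32.6 and 34.3 against 31.8 and 30.9 (-0.09 ± 0.12 SE). The sum of the 3 genes was 321.1 and 297.7 in the controls and 364.7 and 388.2 in the *Ash1L* shRNA samples. The share of *Atp5g2* in their counts was 10.2% (Wilson 95% interval 9.3 to 11.1) and 11.5% (10.9 to 12.1) in the controls and 8.71% (8.17 to 9.28) and 7.95% (7.38 to 8.57) in the *Ash1L* shRNA samples.

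The alpha and beta subunits, which form the catalytic head, and the gamma subunit were not called. *Atp5b*, the beta subunit, had 1272.0 and 1138.2 normalized CPM in the controls and 1365.3 and 1312.8 in the *Ash1L* shRNA samples (log2 fold change 0.15 ± 0.12 SE). *Atp5a1*, the alpha subunit, had 1041.2 and 944.1 against 1188.9 and 1225.4 (0.28 ± 0.12 SE). *Atp5c1*, the gamma subunit of the stalk, had 202.9 and 201.6 against 225.3 and 220.3 (0.14 ± 0.11 SE). All 3 were above the controls in both *Ash1L* shRNA samples. *Atp5f1*, a subunit of the peripheral stalk, had the lowest log2 fold change of the complex (-0.27 ± 0.18 SE), with 174.1 and 220.6 against 186.2 and 141.0.

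Per kilobase of exon, the control level was highest for *Atp5b* (629.0 CPM per kb), followed by *Cox8a* (541.3), *Atp5a1* (341.8), *Cox6b1* (317.9) and *Cox6a1* (317.6). *Ndufa4* (304.2 CPM per kb) and *Uqcrh* (273.6) came next. *Cox6b1* and *Cox6a1* did not differ beyond the spread of the controls.

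**Figure D2:**
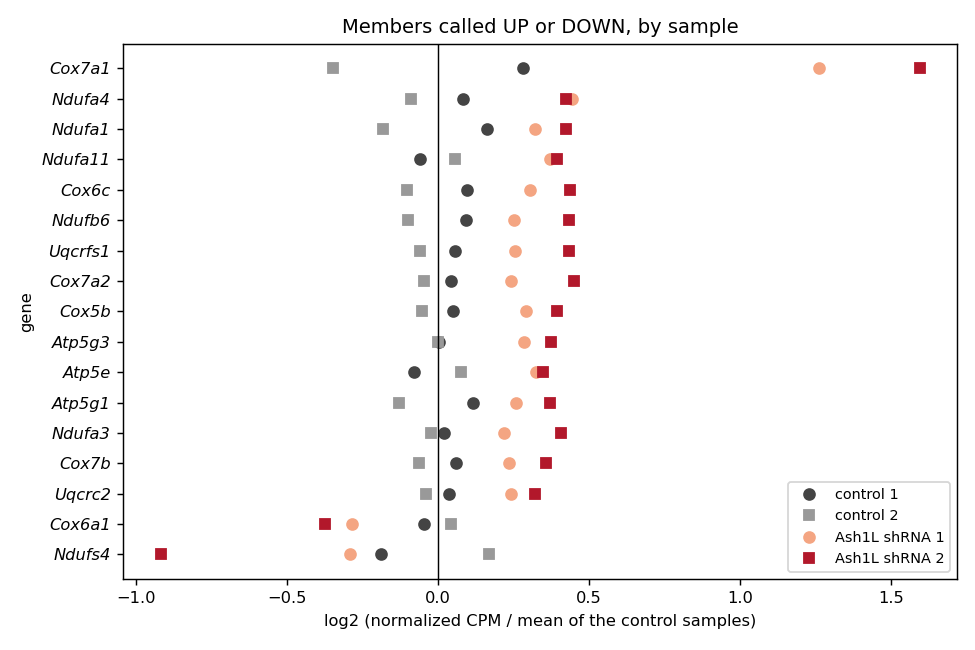
Each of the 17 called subunit genes (vertical axis) in the 4 samples, as the log2 ratio of its normalized CPM to the mean of the 2 controls (horizontal axis). For the 15 UP genes, both *Ash1L* shRNA samples lie to the right of both controls, and for *Cox6a1* and *Ndufs4* both lie to the left.

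**Figure D3:**
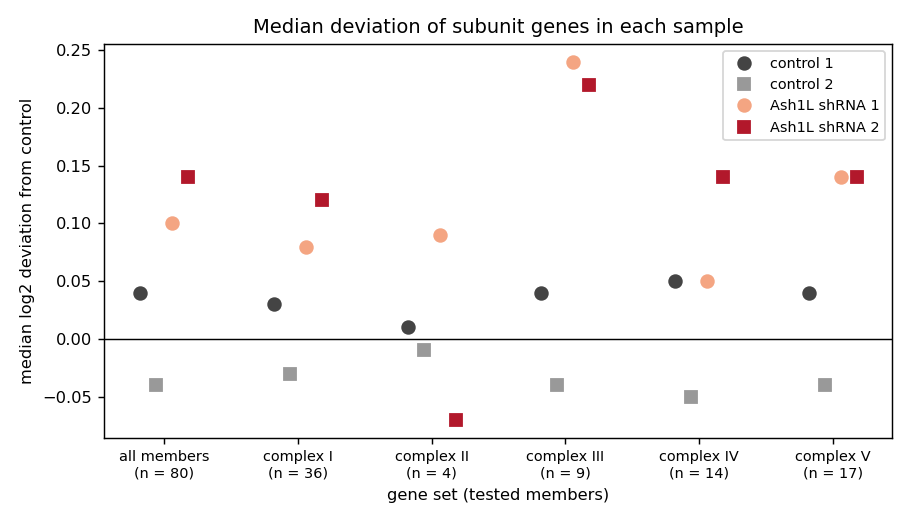
Median over the tested genes of each complex of the log2 deviation from the mean of the controls, by sample. The *Ash1L* shRNA samples lie above both controls for complexes I, III and V, with medians of 0.24 and 0.22 in complex III, while sample 2 lies below them in complex II (-0.07) and sample 1 matches control sample 1 in complex IV (0.05).

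The subunit genes are short, with a median exonic length of 992 bp against 3258 bp over all tested genes, and the direction of change varied with length over all genes. Among all genes of up to 1000 bp, 7.24% were UP, 2.94% were DOWN and the median log2 fold change was 0.04, and above 4000 bp 8.22% were UP and 11.7% were DOWN. Of the 40 subunit genes of up to 1000 bp, 9 were UP and 1 was DOWN, with a median of 0.13. Of the 30 between 1000 and 2000 bp, 5 were UP and 1 was DOWN, where 8.39% and 5.93% of all genes were. Of the 8 between 2000 and 4000 bp, 0 were UP and 0 DOWN, where 9.33% and 7.01% of all genes were. The median of these 8 was 0.02. Of the 2 above 4000 bp, 1 was UP and 0 were DOWN. With an offset for length, 10 of the 80 remained UP (9.09% of all genes) and 2 DOWN (7.53%), and the median was 0.07. Some subunit genes have near-identical copies or overlap other genes. Of the 80 genes, 18 have another annotated gene at least 95% identical over at least 80% of the coding sequence, and 4 of these 18 and 11 of the other 62 were UP, each set with a median of 0.12. The 4 were *Cox5b*, *Atp5g1*, *Cox6c* and *Cox7b*. The UP genes *Cox6c*, *Ndufa11*, *Ndufa3* and *Uqcrc2* share exon bases with a gene on the other strand (*Vps13b*, *Vmac*, *Tfpt* and *Pdzd9*). The strand setting of the counting is not given in the sources used here.

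Promoters of these genes are known for sites of the nuclear respiratory factor NRF1, of ETS factors such as GABP, of YY1 and of the estrogen-related receptors (ERR). They are shown because the called genes differ in which of these motifs they hold. Windows from 250 bases before to 50 after the RefSeq start (GRCm38.p6) were found for 69 of the 83 genes, including 13 UP and 2 DOWN genes. On either strand, the NRF1 motif was present in 17 of the 69 (24.6%) against 5.19% of 27025 genes with a window. The ETS motif (CCGGAAG) was present in 16 (23.2%) against 9.93%, the YY1 motif (AANATGGCG) in 11 (15.9%) against 2.76%, and the ERR motif (TCAAGGTCA) in 2 (2.9%) against 0.466%. The TATA motif (TATAAA) was present in 7 (10.1%) against 15.7%. Among the called genes, the NRF1 motif was in the windows of the UP genes *Ndufa11* and *Atp5g3* and of the DOWN gene *Cox6a1*, and the ETS motif in those of *Atp5e*, *Ndufb6* and *Cox6a1*. Of the 13 UP genes with a window, 2 held the NRF1 motif, 2 the ETS motif, 0 the YY1 motif and 1 the ERR motif. Most of the 13 thus held none of these motifs. The stretches below are written 5′ to 3′ on the strand of the gene, with the motif in capitals.
*Ndufa11*, NRF1, chr17:56717677-56717736, plus strand: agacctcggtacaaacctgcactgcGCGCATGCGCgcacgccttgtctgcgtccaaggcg
*Cox6a1*, NRF1, chr5:115349086-115349145, minus strand: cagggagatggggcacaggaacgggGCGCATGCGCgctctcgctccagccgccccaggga
*Cox6a1*, ETS, chr5:115348959-115349018, minus strand: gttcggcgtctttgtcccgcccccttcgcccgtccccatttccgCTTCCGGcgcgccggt
*Atp5e*, ETS, chr2:174464171-174464230, minus strand: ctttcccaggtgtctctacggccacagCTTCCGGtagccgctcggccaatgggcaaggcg
*Ndufb6*, ETS, chr4:40279612-40279671, minus strand: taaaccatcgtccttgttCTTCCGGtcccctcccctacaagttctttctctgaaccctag
*Atp5g3*, ERR, chr2:73911345-73911404, minus strand: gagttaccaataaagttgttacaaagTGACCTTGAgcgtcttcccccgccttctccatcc
*Ndufs4*, YY1, chr13:114388045-114388070, minus strand: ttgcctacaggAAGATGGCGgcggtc
The same NRF1 letters thus stood before the start of a gene called UP (*Ndufa11*) and of a gene called DOWN (*Cox6a1*). The ETS and ERR matches shown read on the opposite strand, as CTTCCGG and TGACCTTGA. The YY1 match of *Ndufs4* lies 35 bases after the start, not before it.

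Genes of related processes were called in the same way, in lists drawn up by function or, for the mitochondrial ribosomal proteins, by name pattern. The shares below stand beside 8.61% UP and 8.28% DOWN over all tested genes. Of 39 tested assembly factors for the complexes, 4 (10.3%) were UP and 0 were DOWN, with a median of 0.08. They were *Ndufaf4* (log2 fold change 0.59 ± 0.20 SE), *Tmem126b* (0.47 ± 0.15 SE) and *Timmdc1* (0.42 ± 0.13 SE), which act in complex I assembly, and *Coa5* (0.38 ± 0.11 SE), which acts in complex IV assembly. All 4 were also UP with the replicate block. *Cycs*, the electron carrier cytochrome c, had 87.1 and 77.7 normalized CPM in the controls and 101.8 and 115.8 in the *Ash1L* shRNA samples (0.40 ± 0.13 SE) and was UP. Of the subunit genes outside the name pattern, *Ndufab1* was UP (0.35 ± 0.14 SE) but not with the replicate block, and *Cox4i1* (0.25 ± 0.12 SE) and *Cox4i2* (0.34 ± 0.48 SE) were not called.

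Mitochondrial ribosomal proteins, which translate the mitochondrially encoded subunits, had 13 UP (17.1%) and 3 DOWN (3.95%) of 76 with a median of 0.13. With the replicate block, 8 were UP and 2 DOWN, where 6.48% and 6.28% of all tested genes were. The citric acid cycle and pyruvate dehydrogenase list had 4 UP (23.5%) and 1 DOWN (5.88%) of 17 with a median of 0.11. Its DOWN gene was *Cs*, citrate synthase, with 236.3 and 283.2 normalized CPM in the controls and 195.7 and 173.8 in the *Ash1L* shRNA samples (-0.49 ± 0.14 SE). Its UP genes were *Dlat*, *Suclg1*, *Fh1* and *Pdhx*, with log2 fold changes from 0.37 to 0.43. Mitochondrial carriers and channels had 3 UP of 15 (20%), *Slc25a22*, *Timm23* and *Vdac3*, and 1 DOWN (6.67%), *Mfn1*. Glycolysis had 3 UP of 17 (17.6%), *Hk2*, *Ldha* and *Pgam1*, and 2 DOWN (11.8%). The DOWN glycolysis genes were *Aldoc* (-1.18 ± 0.39 SE) and *Ldhb* (-0.45 ± 0.18 SE). *Aldoc* is also a marker of astrocytes. With the replicate block, *Fh1*, *Pdhx*, *Vdac3*, *Mfn1* and *Pgam1* were no longer called.

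Of 15 regulators of mitochondrial biogenesis, 1 was UP (6.67%, against 8.61% of all tested genes), 0 were DOWN and the median was -0.03. The UP gene was *Lrpprc*, which stabilizes mitochondrial mRNAs, with 122.8 and 136.6 normalized CPM in the controls and 165.5 and 175.8 in the *Ash1L* shRNA samples (log2 fold change 0.40 ± 0.12 SE). The coactivator *Ppargc1a* had 64.8 and 40.5 against 51.5 and 51 (-0.03 ± 0.22 SE). *Nrf1* (-0.03 ± 0.16 SE), *Gabpa* (-0.14 ± 0.14 SE), *Esrra* (-0.06 ± 0.16 SE) and *Tfam* (0.30 ± 0.15 SE) were not called.

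**Figure D4:**
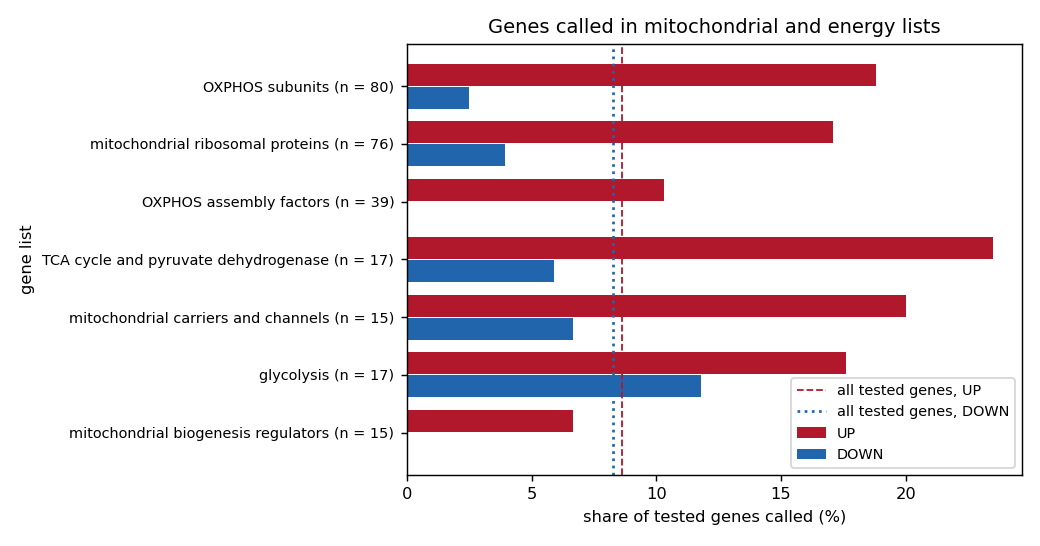
Share of tested genes called UP (red bars) and DOWN (blue bars) in the subunit genes and in lists of related mitochondrial and energy genes, with the number tested. The dashed and dotted lines mark the shares over all tested genes, 8.61% UP and 8.28% DOWN; the subunit genes stand at 18.8% and 2.5%.

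Markers of some cell types moved with the groups as well. Of 9 astrocyte markers, 7 were DOWN (median -0.82), and their summed level was 5525.4 and 5824.1 normalized CPM in the controls and 4432.2 and 3274.6 in the *Ash1L* shRNA samples. Of 8 excitatory neuron markers, 4 were DOWN (median -0.43), with sums of 2899.0 and 3395.0 against 2655.9 and 2107.6. Of 8 interneuron markers, 3 were DOWN (median -0.37), with sums of 693.1 and 635.4 against 574.9 and 598.7. All 8 excitatory neuron, 7 of 9 astrocyte and 6 of 8 interneuron markers had both *Ash1L* shRNA samples below both controls. Of all tested genes, 26.8% lay so and 8.28% were DOWN. The astrocyte markers *Gfap* (log2 fold change 0.00) and *Aqp4* (0.11) and the interneuron markers *Gad2* (0.28) and *Slc32a1* (0.11) were not lower. NeuN staining in the paper showed no significant neuron loss after *Ash1L* shRNA, in slices rather than in these RNA samples.

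Of 8 oligodendrocyte markers, 1 was DOWN, with sums of 2592.5 and 2940.1 normalized CPM against 2799.3 and 2459.1. Of 8 microglia markers, 0 were called in either direction, with sums of 839.9 and 854.1 in the controls and of 1114.9 and 437.2 in *Ash1L* shRNA samples 1 and 2, which stood apart from each other. Of 7 endothelial markers, 0 were called, with sums of 305.0 and 273.3 against 307.2 and 259.1. Of 7 pericyte and smooth muscle markers, 1 was UP (*Abcc9*, and with the replicate block *Rgs5* in its place), with sums of 158.5 and 180.4 against 189.9 and 173.8. Of 7 tested peripheral immune cell markers, 4 were DOWN (*Cd3e*, *Cd4*, *Cd79a* and *Ms4a1*), with a median of -1.64. Both *Ash1L* shRNA samples lay below both controls for 6 of the 7, against 26.8% of all tested genes. The lowest log2 fold changes, of the B cell genes *Cd79a* (-3.16 ± 0.46 SE) and *Ms4a1* (-4.65 ± 0.86 SE), rest on few counts. *Cd79a* had counts of 31 and 82 in the controls and 7 and 5 in the *Ash1L* shRNA samples. *Ms4a1* had 11 and 85 against 2 and 1. The sums over the list were 113.9 and 136.7 normalized CPM in the controls and 101.9 and 46.3 in the *Ash1L* shRNA samples, of which *Lyz2*, not called, made up 74.1, 66.3, 70.8 and 29.6. Every marker of these lists had counts in every sample. The part of these marker differences in the values of the subunit genes was not tested.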

How the data were processed

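The authors isolated total RNA from PFC punches, prepared stranded libraries depleted of ribosomal RNA, aligned reads to mm10 with STAR and ran featureCounts. The deposited values are raw counts for each gene symbol. The labels' extract text names Cutadapt and TopHat2 instead. Total counts ran from 14251190 to 35764874.

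Counts were analysed with edgeR 4.0.16 (R 4.3.3, limma 3.58.1) with filterByExpr, TMM normalization and robust quasi-likelihood tests of knockdown against control, and p-values were adjusted (Benjamini-Hochberg) across 16232 genes. The standard error of a log2 fold change comes from its F statistic. Samples were grouped by title. With 2 samples per group no permutation test can go below p = 0.333. No source says that same-numbered samples came from shared animals, so the main test has no replicate block. The p-values rest on the spread between 2 samples per group, estimated for each gene partly from all genes. If each sample is a pool of 3 mice, as the methods state, the spread between mice was not measured. Alternatives were DESeq2 1.42.0, other scaling and filters, a replicate block, GC and length offsets, leaving out each sample, and a 1.5-fold limit. The tests were checked on simulated counts.

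Gene lengths and positions came from GENCODE vM21 (98.43% of symbols matched), near-identical copies from BLAST+ 2.17.0 and promoter windows from RefSeq (GRCm38.p6), with Python 3.11.15. Named genes are every called subunit gene, the ends of each complex, a fixed list of catalytic subunits and isoforms, and up to 4 genes of other lists, but 1 gene of the catalytic list is not reported here. *Nrf1* and some other list genes were named after their values were seen. The subunit genes and all lists were chosen with earlier results of these data known.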

Additional observations from a re-analysis of the deposited data

How the results depend on the processing

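No called subunit gene changed sign under any alternative run. Same-numbered samples did not deviate together (correlation of deviations -0.11), so the numbers were not taken as pairs. With the replicate block, 3 subunit genes were UP and 0 DOWN; with the block and the length offset, 3 were UP and 2 DOWN (all genes called UP 1163, all genes called DOWN 970), and with the block and the GC offset, 4 were UP and 0 DOWN (1104 and 941 over all genes). A crossed pairing, added after the data were seen, gave 18 UP and 3 DOWN, with 1541 for all genes called UP and 1736 for all genes called DOWN. Leaving out one sample at a time gave 0 to 20 UP and 0 to 5 DOWN subunit genes, 423 to 2368 UP and 306 to 2718 DOWN over all genes, and a median of 0.06 to 0.19. A 1.5-fold limit gave 1 UP and 0 DOWN subunit genes and 765 UP and 491 DOWN over all genes. A filter of 10 counts in every sample gave 17 UP and 1 DOWN (1280 and 1203 over all genes), and the GC offset 15 UP and 1 DOWN (1434 and 1239). The median log2 fold change was 0.07 with the length offset and 0.08 with the block and the length offset. With an arm of 1 sample, that sample was taken to vary like the others. The cause of these differences was not tested.

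The sign changed for some genes that were not called, most of them close to 0, but also for the rare *Cox6b2* (-0.61) and *Cox6a2* (-0.35). Library-size scaling gave *Sdhc* 0.02, *Uqcrc1* 0.02 and *Cox7a2l* 0.03, and the GC offset, with or without the block, gave *Uqcrc1* 0.01 and *Atp5g2* 0.01. The length offset, with or without the block, gave *Cox8a* -0.05. Leaving out one sample gave ranges of -0.10 to 0.06 for *Sdhc*, -0.04 to 0.13 for *Sdhd*, -0.00 to 0.19 for *Cyc1*, -0.06 to 0.01 for *Uqcrc1*, -0.10 to 0.01 for *Cox7c*, -0.86 to 0.01 for *Cox6a2*, -0.12 to 0.11 for *Cox7a2l*, -0.05 to 0.05 for *Cox8a* and -1.43 to 0.27 for *Cox6b2*. Depth limits the rare isoforms *Cox7a1*, *Cox7b2*, *Cox6b2* and *Cox6a2* most. Total counts were lowest in control sample 1, but of these genes only *Cox7a1* had its fewest counts there (28). The fewest counts were in *Ash1L* shRNA sample 2 for *Cox7b2* (2) and *Cox6a2* (31), and in *Ash1L* shRNA sample 1 for *Cox6b2* (26).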
